A study of Mus musculus with 6 samples.

Results

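This account is about 51 genes of cell junctions in the mouse cochlear lateral wall: the claudins, the other membrane proteins of tight junctions, the plaque proteins beneath them, and the cadherins. They are the gene symbols of the deposited table that begin with Cldn, Tjp, Jam, Marveld or Cdh and a digit, plus Ocln, F11r, Lsr, Ildr1, Ildr2, Cgn and Cgnl1, with a mean of at least 10 normalised read counts over the 6 libraries. Of 17091 genes in the table, 55 had such a symbol and 51 reached that mean. The 4 left out were Cldn20, Cdh22, Cdh15 and Cldn34b2, with means of 7.21, 7.04, 4.85 and 3.18, and the member nearest the limit was Cldn1 with 11.2. RNA was sequenced from lateral wall dissected from CBA/CaJ mice, an inbred strain, and the 2 cochleas of a mouse were pooled into 1 sample. The young group held 3 mice aged 2 months and the old group 3 mice aged 2.5 years, and the labels name no treatment and no sex. Their source field names auditory nerve cells although the titles and the tissue field name the lateral wall.

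The lateral wall keeps fluids of different composition apart. Its stria vascularis lies between 2 layers sealed by tight junctions, the marginal cells facing the endolymph and the basal cells facing the spiral ligament, and the vessels inside it have a tight endothelium. Claudins span the membrane and set which ions may pass between cells. Occludin, a MARVEL protein, borders the claudin strands, and the angulins recruit tricellulin to the corners where 3 cells meet. The ZO proteins and the cingulins tie these strands to actin. Cadherins hold neighbouring cells together in adherens junctions, and catenins link them to the cytoskeleton. Loss of Cldn11, Cldn9, Cldn14, Marveld2, Ildr1 or Cdh23 is known to impair hearing in mice.

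Promoter sequences are shown for the most abundant of these genes in young tissue per length, Cldn11, and for 3 genes that differed between old and young mice, Ildr2, Cldn14 and Cdh9. The other genes that differed, Cdh3 and Cdh13, had no entry. Each window runs from 250 bases before to 50 bases after a transcription start (RefSeq, GRCm38.p6), written 5′ to 3′ on the gene's own strand. Capitals mark CAGGTG, the core of the E-box that repressors of the Snail and Zeb families bind, searched on both strands (its reverse complement is CACCTG). The windows lie at chr3:31149670-31149969 on the plus strand for Cldn11, at chr1:166253889-166254188 on the plus strand for Ildr2, at chr16:93929768-93930067 on the minus strand for Cldn14 (1 of 3 starts in the table) and at chr15:16728665-16728964 on the plus strand for Cdh9.
Cldn11: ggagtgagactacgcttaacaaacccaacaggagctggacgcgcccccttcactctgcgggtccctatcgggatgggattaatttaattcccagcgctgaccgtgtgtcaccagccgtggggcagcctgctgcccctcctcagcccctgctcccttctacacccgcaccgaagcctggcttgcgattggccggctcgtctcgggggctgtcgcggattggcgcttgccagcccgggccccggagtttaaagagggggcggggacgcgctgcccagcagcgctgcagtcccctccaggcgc
Ildr2: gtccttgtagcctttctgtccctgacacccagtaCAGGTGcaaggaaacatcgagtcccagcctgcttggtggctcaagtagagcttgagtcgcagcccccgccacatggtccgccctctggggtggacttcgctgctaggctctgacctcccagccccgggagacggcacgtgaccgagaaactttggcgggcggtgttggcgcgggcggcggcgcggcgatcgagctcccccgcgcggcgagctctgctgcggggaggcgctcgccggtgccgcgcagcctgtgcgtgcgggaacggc
Cldn14: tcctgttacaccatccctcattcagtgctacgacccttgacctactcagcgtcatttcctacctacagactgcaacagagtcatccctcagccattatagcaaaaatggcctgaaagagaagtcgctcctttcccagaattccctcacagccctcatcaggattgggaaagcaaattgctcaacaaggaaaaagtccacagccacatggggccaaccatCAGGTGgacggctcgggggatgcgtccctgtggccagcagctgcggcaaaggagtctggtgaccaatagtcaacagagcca
Cdh9: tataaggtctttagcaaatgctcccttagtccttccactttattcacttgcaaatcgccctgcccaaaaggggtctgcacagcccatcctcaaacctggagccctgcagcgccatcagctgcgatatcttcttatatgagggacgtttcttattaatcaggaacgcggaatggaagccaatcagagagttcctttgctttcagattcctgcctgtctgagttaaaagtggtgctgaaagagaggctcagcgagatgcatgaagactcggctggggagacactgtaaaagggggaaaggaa

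The Ildr2 window held 1 match, as did the Cldn14 window shown, and neither the Cldn11 nor the Cdh9 window held any. The windows of the other two Cldn14 starts, which are not shown, held 0 matches. Of 32851 such windows in the table, 20.2% held the motif. The table had 49 windows for 39 of the 55 symbols, and 15 of these windows held it. The windows of Cldn11 and Ildr2 were rich in G and C (66.3% and 69%), and those of Cdh9 and of the Cldn14 start shown less so (48.7% and 52.7%). Of the other motifs searched in the same way, AACCGGTT, which Grainyhead factors bind, was in 0.146% of all windows and in 0 of the 49, and TATAAA was in 13.6% and in 3 of the 49. A match is a string of letters and not a measured binding site.

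The libraries held between 37055355 and 39103398 reads as recovered from the deposited values. In old replicate 3 the normalised read count of Xist was 45.2, and in the other 5 libraries it lay between 24382 and 29162. The labels name no sex, and the part of sex in the values of old replicate 3 was not tested. Markers of the tissue were present in all libraries, among them Kcnq1 of marginal cells (8301 to 12510), Dct of intermediate cells (135921 to 186382) and Coch of fibrocytes (322028 to 821557), but within the list of intermediate cells the pigment genes Tyrp1 (0.97 to 24.9) and Pmel (32.5 to 71.1) were low. Markers of blood and nerve differed between old mice: 8 erythroid markers summed to 2884 to 4960 in the young mice and to 21942, 7125 and 43294 in old replicates 1, 2 and 3, and 7 neuronal markers to 384 to 731 and to 629, 4957 and 5802. The sum of 8 macrophage markers was 4603 to 5439 in young and 17892 to 28794 in old mice. None of the markers on these lists was at 0 in every library. In bulk tissue, fewer cells of a type and less RNA per cell cannot be told apart.

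Of the 51 junction genes, 5 differed between young and old lateral wall and 46 did not pass the test. Cdh3, Ildr2 and Cldn14 were lower and Cdh9 and Cdh13 higher in the old mice (limma, adjusted p below 0.05 with the Benjamini-Hochberg method over 17091 genes). Over all genes 5.25% passed this test, 2.71% as higher and 2.55% as lower, against 2 higher and 3 lower of 51 here. Of the 2 higher, Cdh9 reached the mean of 10 only through its old values. When only genes that reach a mean of 10 are counted, the share was 5.67% (2.88% higher, 2.8% lower). At an unadjusted limma p below 0.05 there were 12 members (9.8% higher, 13.7% lower), against 10.8% and 10.6% of all genes. The values of old and young mice did not overlap in 10 members, 7 lower and 3 higher, that is in 19.6% against 26.1% of all genes (13.2% higher, 12.8% lower). Log2 fold changes are differences of mean log2(value + 1), old minus young, and their median was −0.02 over the members and −0.00 over all genes, and the median size of the change was 0.29 and 0.21. On the recovered reads edgeR called the same 5 members and DESeq2 7, adding Cldn13 and Cdh11, against 5% and 10.6% of all genes. For 30 members the 95% interval of the log2 fold change lay within 1 unit of 0, and for 17 within 0.5. Leaving out 1 library in turn gave between 1 called member (without young replicate 3) and 6 (without old replicate 2), and 2, 3, 5 and 5 without young replicates 1 and 2 and old replicates 1 and 3. These were not always the same genes. Without old replicate 1, Cdh9 was lost and Cldn19 gained. Without old replicate 2, Cdh13 and Cldn14 were lost and Cdh19, Cdh8 and Cldn13 gained. Without old replicate 3, only Cdh3 and Ildr2 were kept, and Cdh23, Cldn4 and Cldn6 were gained.

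**Figure D1:**
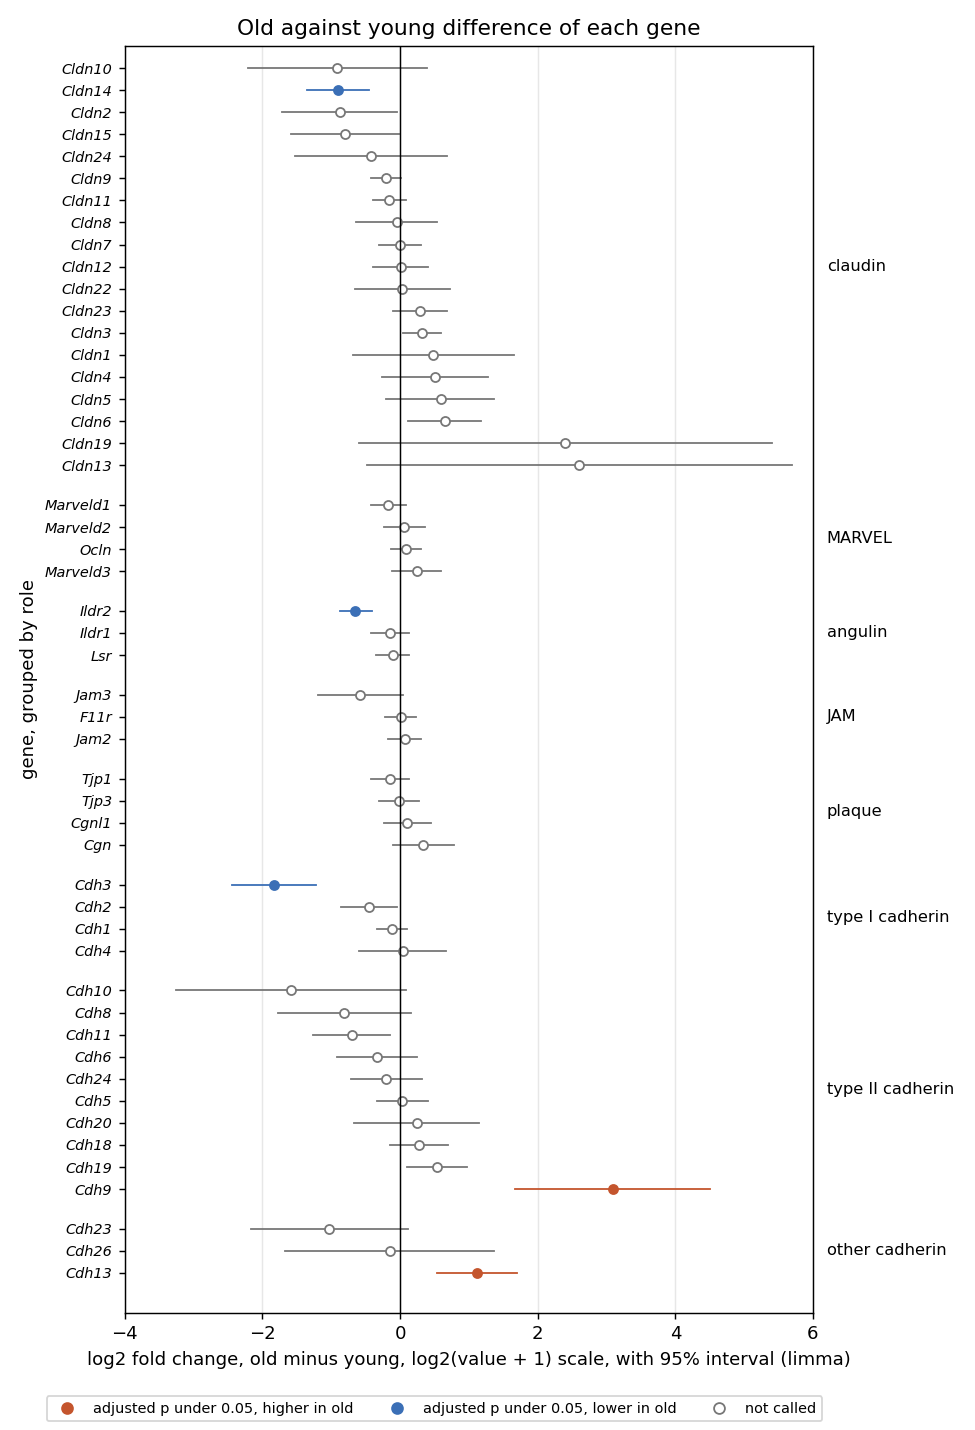
Log2 fold change of 50 of the 51 members from young to old mice (x axis, differences of mean log2(value + 1)), with the 95% limma interval as a line, genes in rows grouped by role. Filled points passed an adjusted p of 0.05: Cdh3, Ildr2 and Cldn14 lie left of 0 and Cdh9 and Cdh13 right of it, and the widest intervals are those of Cldn13 and Cldn19.

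To compare genes with each other, normalised read counts were divided by the length of the gene's exons in kilobases. On this scale the order in young tissue was led by Cldn11, the claudin of the strial basal cells, with 13541 ± 1382 (SD, n = 3), followed by Cldn9 with 11080 ± 305, Cdh1, which encodes E-cadherin, with 5181 ± 160, and Jam3 with 3754 ± 521. The ranges of these 4 over the young libraries did not overlap with those of the next gene in the order. Below them came Cldn3 with 1435, then F11r, Jam2, Cgnl1 and Tjp1 between 1243 and 1010. From Tjp1 down to Ildr1 (534) each gene's range overlapped with that of its neighbour, while genes farther apart in the order were separate: the range of Cldn8 (796 to 989) lay above that of Cldn7 (689 to 763), and that of Ocln (604 to 692) above that of Lsr (519 to 587). In 40 of the 50 neighbouring pairs the ranges overlapped. The lowest levels were those of Cldn1, Cdh10, Cdh9 and Cldn13, at 0.976 to 1.93 normalised read counts per kilobase.

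**Figure D2:**
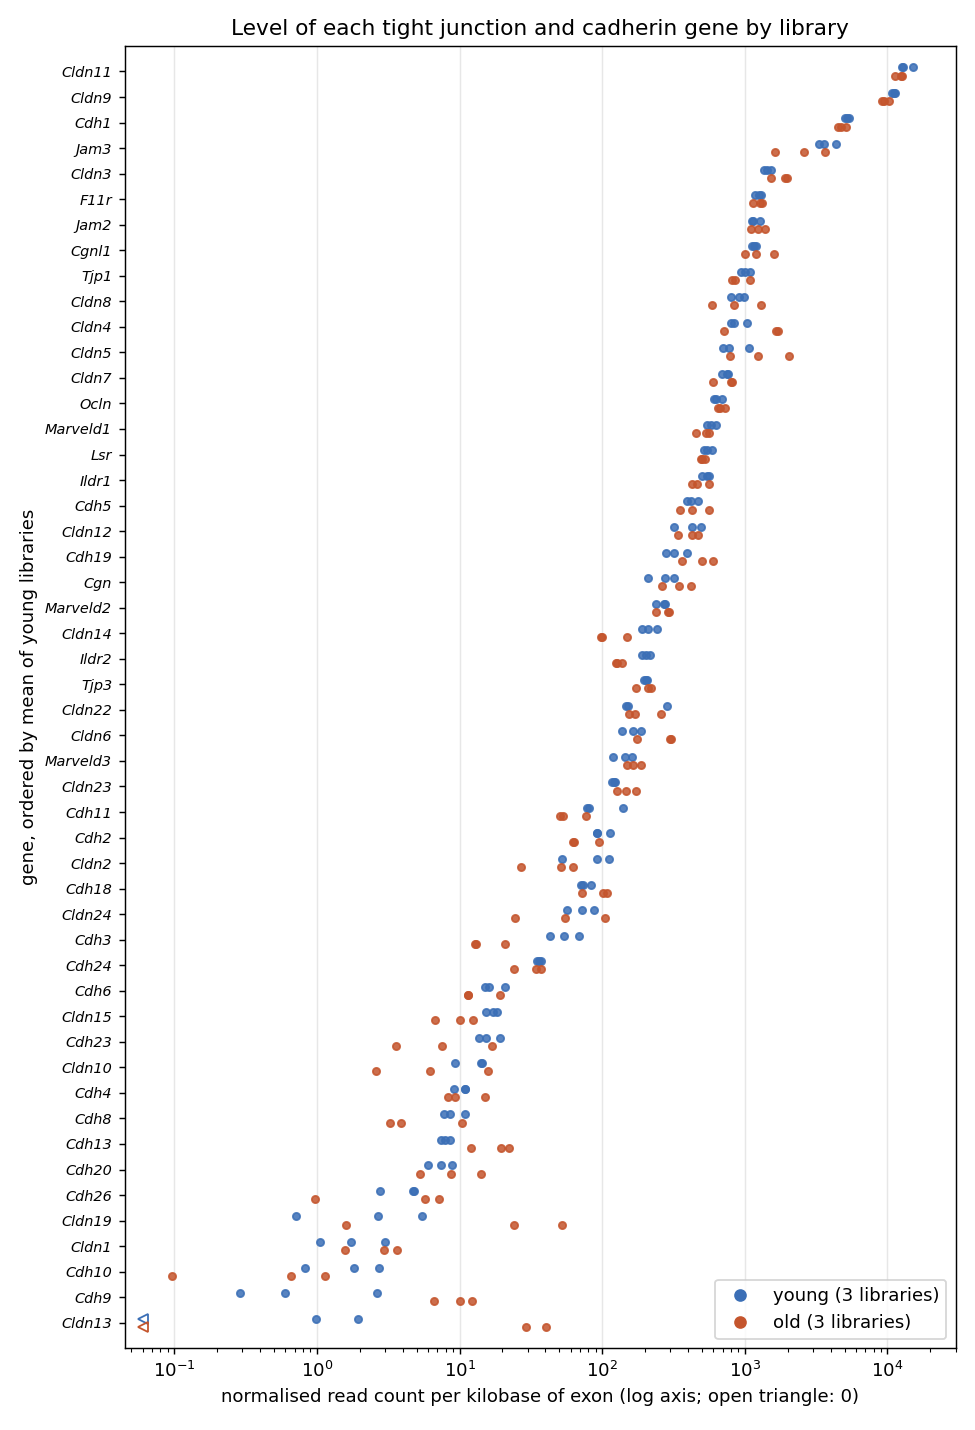
Normalised read count per kilobase of exon on a log axis for 50 of the 51 members, 1 point per library, young in blue and old in orange, ordered by the young mean; an open triangle marks 0. Cldn11, Cldn9 and Cdh1 lead in both age groups, and the old points spread more than the young at the low end.

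Spread between mice was wider in the old group. The coefficient of variation of a member over the 3 mice of a group had a median of 11.7% in the young and 23.8% in the old, and it was larger in the old group for 40 of 51 members. This is a description of 3 mice per group and was not tested. The same figures were not computed over all genes, so the wider spread cannot be called particular to the members.

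Among the claudins, limma called 1 of 19 members (5.26%, against 5.25% of all genes), and it was Cldn14, which fell. Cldn11 stood at 28300, 23676 and 23990 normalised read counts in young replicates 1, 2 and 3 and at 23338, 23493 and 21225 in the old. All 3 old values were below the lowest young value, by a small margin, with a log2 fold change of −0.16 (95% interval −0.40 to 0.09, limma adjusted p = 0.46). Cldn9, a claudin of the organ of Corti and stria whose loss causes deafness, had 16112, 16355 and 15500 in the young and 14898, 13578 and 13145 in the old mice. Here too the groups did not overlap, and the log2 fold change of −0.21 (−0.42 to 0.01) did not pass (limma adjusted p = 0.246). Cldn9 lies 137 bases from Cldn6 on the opposite strand of chromosome 17. Because the sources used here do not state whether the libraries keep strand, reads at the ends of that pair are uncertain.

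Cldn14, a claudin of the organ of Corti that is mutated in hereditary deafness, stood at 407, 445 and 513 normalised read counts in young replicates 1, 2 and 3. In the old mice it stood at 317, 212 and 209, so the lowest young value was above the highest old value. From 455 ± 53.4 the mean fell to 246 ± 61.4 (SD, n = 3 each), or by 0.90 ± 0.20 (SE) on the log2 scale, with an adjusted p of 0.0347 in limma. The gene lies on chromosome 16 from 93919031 to 94008837 (GENCODE M21, GRCm38). The call was lost without young replicates 1, 2 or 3 (adjusted p of 0.066, 0.116 and 0.169) without old replicates 2 or 3 (0.0597 and 0.0837) and in limma without trend and robust estimation (0.0925), and kept without old replicate 1 (0.0135). The sum of 7 hair cell markers was 1797 to 3220 in the young and 1084, 1428 and 3269 in old replicates 1, 2 and 3, and that of 6 markers of supporting and sulcus epithelium was 4663 to 5639 and 6054 to 6911. Both sums ran against the order of Cldn14 in the old mice. The 6 markers of spindle and root cells summed to 47722 to 57576 in the young and 65364, 47510 and 31138 in the old. That sum had the old order of Cldn14, but in old replicate 1 it was above all young mice and Cldn14 was below them. Within the list, Slc26a4, Anxa1, Lgr5 and P2rx2 had this order, and Epyc (15379, 16004 and 7832) and Dpp10 (314, 215 and 224) did not. The part of these cells in the result was not tested.

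The claudins that seal epithelia, Cldn3, Cldn4, Cldn6 and Cldn7, were higher in old replicates 1 and 2 than in old replicate 3. Cldn4, known as a receptor for a clostridial toxin, stood at 1888, 1458 and 1519 normalised read counts in the young and at 3112, 3012 and 1289 in the old mice. Old replicate 3 was therefore below all young mice while the other old mice were above them. Cldn3 had 1928, 1788 and 1703 against 2481, 2397 and 1917, with a log2 fold change of 0.32 (95% interval 0.04 to 0.59, limma adjusted p = 0.172). Cldn6, known from embryonic epithelia, had 320, 281 and 237 against 524, 518 and 303, with 0.65 (0.12 to 1.18, limma adjusted p = 0.155). Cldn7 had 1342 to 1487 in the young and 1591, 1565 and 1161 in the old. Without old replicate 3, Cldn4 and Cldn6 passed (limma log2 fold changes of 0.93 and 0.91, adjusted p of 0.0138 and 0.0384). The sum of 5 general epithelial markers, which include Epcam and keratins, was 12840 to 14899 in the young mice and 19449, 15993 and 14753 in old replicates 1, 2 and 3, and its part in these values was not tested. Cldn8, which lines the distal nephron, had 1875 to 2330 in the young and 3080, 1973 and 1395 in the old mice, the order that the sum of spindle and root cell markers had.

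The claudins known to form pores for ions or water, Cldn2, Cldn10 and Cldn15, had lower means in the old mice, and none of them passed. Cldn2 had 173, 373 and 304 normalised read counts in the young and 170, 206 and 89.4 in the old mice, a log2 fold change of −0.88 (95% interval −1.72 to −0.04, limma adjusted p = 0.216). Cldn15 had 32.5, 36.3 and 38.8 against 21.3, 26.5 and 14.4, without overlap, and −0.80 (−1.58 to −0.02, limma adjusted p = 0.224). Cldn10 had 24.1 to 37.3 in the young and 40.7, 16.1 and 6.73 in the old, so 1 old mouse was above all young mice. These 3 genes were grouped after their values were seen.

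Cldn11 and Cldn9 together made up 79.8%, 80.6% and 80% of the summed claudin level per kilobase in the young libraries and 73.6%, 74% and 75.8% in the old. The groups did not overlap, and with 3 mice against 3 the exact two-sided permutation p of 0.1 is the smallest the design can give (0.14 with Benjamini-Hochberg adjustment over 7 shares of claudins and cadherins computed). The share is per length and was computed after the order of levels was known. Summed over the 19 claudins, the level per kilobase was 30730 ± 1931 normalised read counts for the young group and 29223 ± 2029 for the old (SD, n = 3 each).

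The remaining claudins were Cldn1, Cldn5, Cldn12, Cldn13, Cldn19, Cldn22, Cldn23 and Cldn24. Cldn12, which takes part in calcium transport, had 1342 to 2088 normalised read counts in the young and 1435 to 1988 in the old mice, and its log2 fold change was 0.01 (95% interval −0.40 to 0.41). Cldn23 had 216 to 228 in the young and 236 to 317 in the old mice, without overlap, and 0.29 (−0.10 to 0.68). Cldn1, a claudin of skin, was near the lower limit of the rule with 5.11 to 17.5 in all libraries. Cldn22 lies wholly within exons of Wwc2 on the opposite strand, and Cldn24 1.68 kilobases from it, so the reads of Cldn22 (145 to 285) cannot be assigned with certainty.

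Cldn13 and Cldn19, claudins known from other tissues, were high in single old libraries. Cldn13, known from blood-forming tissue of the mouse, was covered by 3 reads over the 3 young mice and by 77 over the old ones, which after scaling is 23.8 times as much (95% counting interval 7.83 to 118). Its normalised read counts were 1.05, 2.07 and 0 in the young and 31, 0 and 43.2 in the old mice. With means of 1.04 and 24.8, Cldn13 reached the mean of 10 only through its old values, which favours a rise. The reads lay in old replicates 1 and 3, which also had the highest erythroid sums; old replicate 2, at 0, had an erythroid sum of 7125, above the young mice. Limma did not call the gene (adjusted p = 0.313), but did so without old replicate 2 (0.0064), as did DESeq2 on the recovered reads (0.0278) and the authors' deposited table (0.0279). Cldn19, a claudin of Schwann cells and kidney, had 23.1, 11.4 and 3.06 in the young and 6.79, 223 and 102 in the old mice. The sum of the 7 neuronal markers was 629, 4957 and 5802 in old replicates 1, 2 and 3, and that of 8 Schwann cell markers 27880, 35671 and 39807, so Cldn19 and both sums were higher in old replicates 2 and 3 than in old replicate 1. Between old replicates 2 and 3, Cldn19 was higher in replicate 2 and both sums in replicate 3. Cldn19 was not called (limma adjusted p = 0.334) except without old replicate 1 (0.0272). The part of blood and nerve in these values was not tested. Both genes were singled out after their values were seen.

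**Figure D3:**
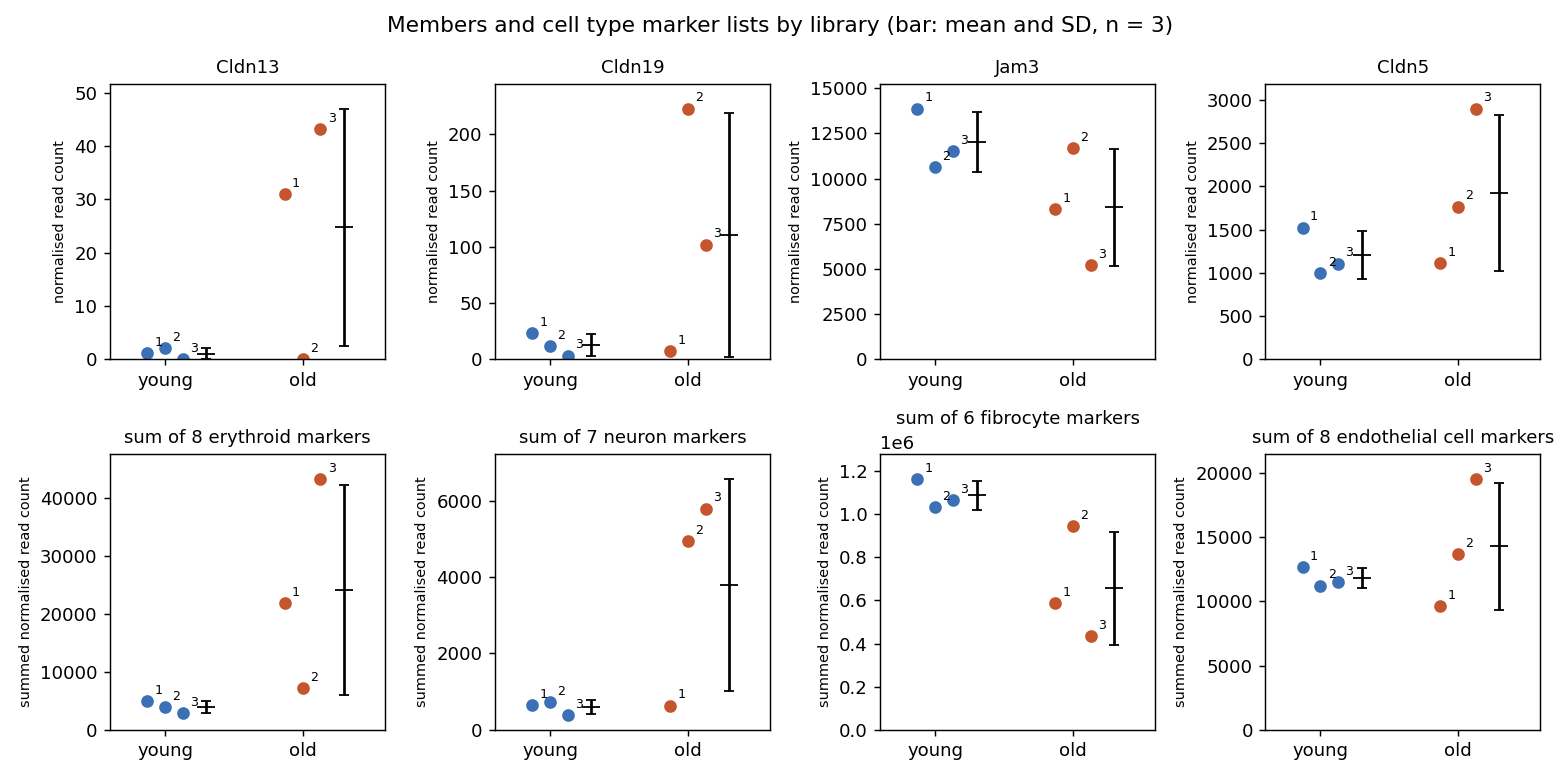
Upper panels: normalised read counts of Cldn13, Cldn19, Jam3 and Cldn5 in each library (numbers mark the replicate; bar, mean and SD of 3). Lower panels: the summed normalised read counts of 8 erythroid, 7 neuronal, 6 fibrocyte and 8 endothelial markers in the same libraries; old replicates 1 and 3 stand highest for Cldn13 and erythroid markers, old replicates 2 and 3 for Cldn19 and neuronal markers, and old replicate 3 is lowest for Jam3 and fibrocyte markers.

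Cldn5 and Cdh5, the claudin and the cadherin of endothelium, were compared with endothelial markers. Cldn5 stood at 1522, 996 and 1104 normalised read counts in the young and at 1112, 1765 and 2899 in the old mice, and the groups overlapped (log2 fold change 0.59, 95% interval −0.20 to 1.37, limma adjusted p = 0.366). Cdh5, which encodes VE-cadherin, stood at 1987, 1641 and 1772 and at 1466, 1797 and 2341, with 0.03 (−0.34 to 0.41, limma adjusted p = 0.939). Both were highest in old replicate 3 and lowest among the old mice in replicate 1. The sum of 8 endothelial markers, which include Pecam1, Tek and Kdr, was 11235 to 12707 in the young and 9636, 13707 and 19536 in old replicates 1, 2 and 3. Per 100 reads of that sum, Cdh5 had 14.6 to 15.6 in the young and 15.2, 13.1 and 12 in the old mice, and Cldn5 had 8.86 to 12 and 11.5, 12.9 and 14.8.

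Of the genes of the 4 MARVEL proteins limma, edgeR and DESeq2 called 0, and 0 had an unadjusted p below 0.05. Limma called 5.25% of all genes, edgeR 5% and DESeq2 10.6%. An unadjusted limma p below 0.05 was reached by 10.8% (higher) and 10.6% (lower), so 0 of 4 says little. Ocln, which encodes occludin, had 2923, 2635 and 2552 normalised read counts in the young and 2840, 2724 and 3056 in the old mice, with a log2 fold change of 0.09 (95% interval −0.13 to 0.31, limma adjusted p = 0.66). Marveld2, the gene of tricellulin, had 800, 933 and 911 against 971, 803 and 997, with 0.06 (−0.23 to 0.36, limma adjusted p = 0.829). The intervals of both exclude a change of 0.5 log2 units in either direction. Marveld1 and Marveld3 had −0.17 (−0.42 to 0.09) and 0.24 (−0.12 to 0.60). Ocln and Marveld2 are neighbours on chromosome 13, 43.2 kilobases apart.

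Of the 3 angulins, which mark the corners between cells, Ildr2 fell and Lsr and Ildr1 were not called. Limma called 5.25% of all genes, so the count of 1 in 3 says little about angulins as a group. Ildr2 stood at 1685, 1562 and 1794 normalised read counts in the young and at 1128, 1038 and 1048 in the old mice. All 3 old mice were far below the lowest young mouse, and both groups were tight. The mean of 1680 ± 116 in the young was 1.57 times that of 1071 ± 48.9 in the old (SD, n = 3 each), and on the log2 scale Ildr2 fell by 0.65 ± 0.10 (SE), with an adjusted p of 0.0111 in limma. It no longer passed without young replicate 3 (0.0766), and it passed without each of the other libraries (0.0165 to 0.0367). Ildr2 lies on chromosome 1 from 166254139 to 166316823 (GRCm38), and 11% of its exon length is shared with the antisense gene 5330438I03Rik, so those reads are uncertain. Lsr, whose product is also a lipoprotein receptor, had 1127, 1276 and 1173 against 1078, 1084 and 1149, with −0.11 (95% interval −0.35 to 0.13, limma adjusted p = 0.607). Ildr1, the angulin mutated in hereditary deafness, had 2136 to 2408 in the young and 1836 to 2426 in the old, with −0.15 (−0.42 to 0.13). Exons of Lsr overlap antisense genes over 43.6% of their length (Gm4673), and its value carries the same uncertainty.

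The junctional adhesion molecules are immunoglobulin-type proteins beside the claudin strands, and of their 3 genes limma, edgeR and DESeq2 called 0, with 0 at an unadjusted p below 0.05. Over all genes these tools called 5.25%, 5% and 10.6%. At an unadjusted limma p below 0.05 there were 10.8% higher and 10.6% lower, so 0 of 3 says little. F11r, which encodes JAM-A of epithelia and vessels, had 3125, 3432 and 3371 normalised read counts in the young and 3535, 3406 and 3035 in the old mice. Its log2 fold change was 0.01 (95% interval −0.22 to 0.23, limma adjusted p = 0.983). Jam2 had 6817 to 7732 against 6709 to 8310, with 0.07 (−0.18 to 0.31). Jam3, which mesenchymal cells, glia and vessels express, had 13872, 10646 and 11522 in the young and 8309, 11666 and 5225 in the old mice, with −0.58 (−1.20 to 0.04, limma adjusted p = 0.262). Old replicates 1 and 3 were below all young mice and old replicate 2 was not. The sum of 6 fibrocyte markers, Coch and Otos among them, was 1033009 to 1162741 in the young and 588343, 946070 and 435713 in old replicates 1, 2 and 3. Per 100 reads of that sum, Jam3 had 1.03 to 1.19 in the young and 1.41, 1.23 and 1.2 in the old mice, and the part of the fibrocytes in its level was not tested. Exons of Jam3 share 36.2% of their length with the antisense gene Gm48796.

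Of the 5 plaque proteins under the strands limma, edgeR and DESeq2 called 0, and 0 had an unadjusted p below 0.05. The shares of all genes called were 5.25%, 5% and 10.6%. Those at an unadjusted limma p below 0.05 were 10.8% higher and 10.6% lower, so 0 of 5 says little. Tjp1, which encodes the scaffold ZO-1, had 7784, 8559 and 7328 normalised read counts in the young and 6353, 6713 and 8444 in the old mice, with a log2 fold change of −0.15 (95% interval −0.43 to 0.13, limma adjusted p = 0.552). Old replicates 1 and 2 were below the young mice and old replicate 3 within their range. Tjp3 had 730 to 764 and 644 to 811. Cgnl1, the gene of paracingulin, was the most abundant of these 5 per length with 1158 ± 40.4 in young tissue, and had 7896 to 12487 normalised read counts in the old against 8781 to 9413 in the young mice. Cgn, the gene of cingulin, had a log2 fold change of 0.34 (−0.11 to 0.79).

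Among the type I cadherins, Cdh3 fell and its neighbour Cdh1 was not called. Limma called 1 of these 4 genes, against 5.25% of all genes. Cdh3 encodes P-cadherin, a cadherin of epithelia and pigmented cells. It stood at 190, 303 and 238 normalised read counts in young replicates 1, 2 and 3 and at 57.2, 90.8 and 56.7 in the old. All young values were far above the highest old value. The young mean of 244 ± 56.7 was 3.57 times the old mean of 68.2 ± 19.5 (SD, n = 3 each), and Cdh3 fell by 1.83 ± 0.27 (SE) on the log2 scale, with an adjusted p of 0.00766 in limma. Of the members this was the fall with the smallest p, and it was called without each library in turn (adjusted p of 0.00268 to 0.0462) and by edgeR and DESeq2 on the recovered reads (0.0112 and 6.26e-08). Cdh3 lies on chromosome 8 from 106510891 to 106557297 and Cdh1 on the same strand from 106603351 to 106670246 (GRCm38), 46.1 kilobases away.

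Cdh1 had 23647, 22991 and 24453 normalised read counts in the young and 20706, 23286 and 21579 in the old mice. The groups overlapped, with a log2 fold change of −0.12 (95% interval −0.33 to 0.10, limma adjusted p = 0.53). Per kilobase, Cdh1 held 81.2% ± 1.88 of the summed level of 17 cadherins in the young group and 78.8% ± 3.16 in the old (SD, n = 3 each). The share of Cdh3 in that sum was 0.663%, 1.12% and 0.841% in the young and 0.229%, 0.332% and 0.207% in the old. The 8 markers of intermediate cells, the pigmented cells of the stria, summed to 233517 to 243251 in the young and 236477, 194750 and 289183 in old replicates 1, 2 and 3. The 8 of marginal cells summed to 360953 to 391449 and to 312496, 285589 and 377894. In old replicate 3 the first sum was above and the second within the young range, and Cdh3 stood at 56.7. The marginal cell list was mixed. Slc12a2 (177197) and Atp1b2 (145507) had its highest young means, and Atp1b2 was called lower, with an old mean of 95731 (limma adjusted p = 0.0256). The others were not called: Kcnq1, Kcne1, Lmx1a and Slc12a2 had lower old means, and Esrrb, Hmx2 and Hmx3 higher ones. The part of these cells in the fall of Cdh3 was not tested.

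Cdh2, which encodes N-cadherin of neural and mesenchymal cells, had 910, 743 and 741 normalised read counts in the young and 504, 509 and 764 in the old mice. Old replicates 1 and 2 were below the young mice and old replicate 3 within their range, and the log2 fold change of −0.45 (95% interval −0.86 to −0.04) did not pass (limma adjusted p = 0.199). Cdh4, which encodes R-cadherin, had 66.1 to 79.6 in the young and 60.5 to 109 in the old mice.

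**Figure D4:**
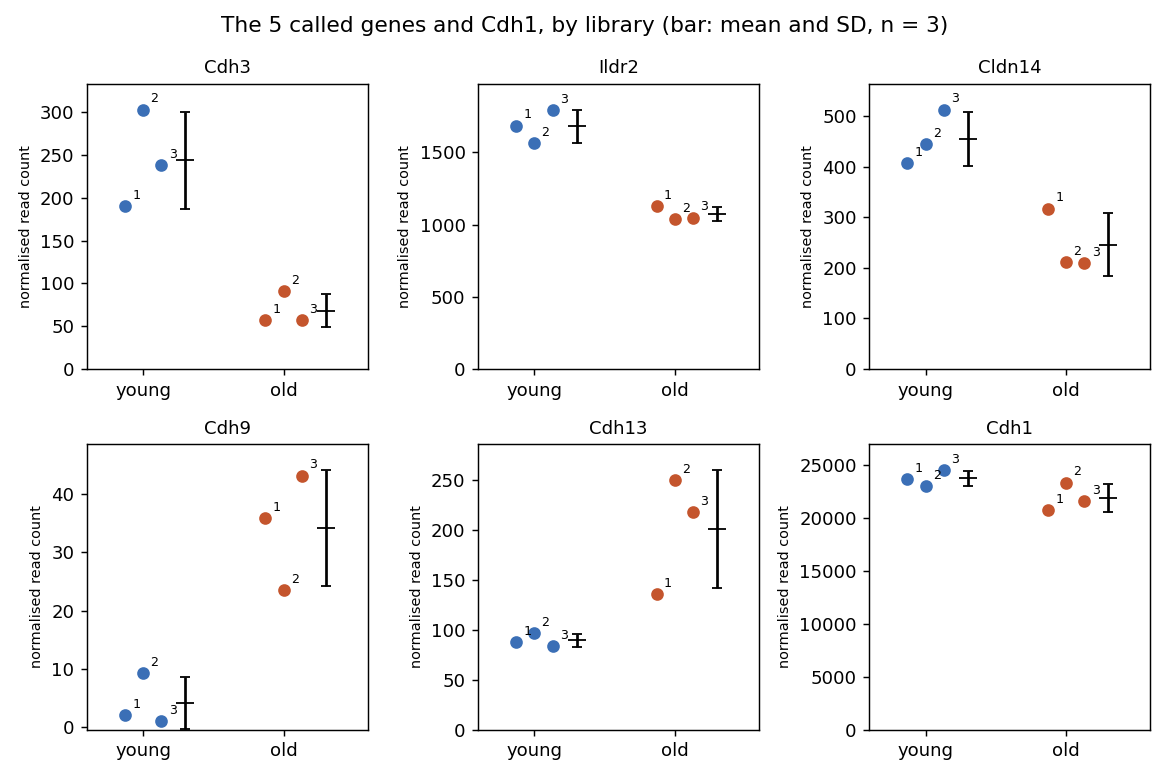
Normalised read counts of Cdh3, Ildr2, Cldn14, Cdh9 and Cdh13, the 5 genes called by limma, and of Cdh1, the neighbour of Cdh3, in each library (numbers mark the replicate; bar, mean and SD of 3; all y axes include 0). The groups do not overlap in the 5 called genes, and they do in Cdh1.

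Of the 10 type II cadherins, Cdh9 rose and 9 were not called, that is 10% against 5.25% of all genes. Cdh9, known from synapses, stood at 2.1, 9.33 and 1.02 normalised read counts in the young and at 35.9, 23.6 and 43.2 in the old mice. Over 3 mice each, 12 reads were young and 107 old, which after scaling is 8.25 times as much (95% counting interval 4.53 to 16.5). The young mean of 4.15 was below the limit of 10 and the old mean was 34.2. Cdh9 is thus a member only through its old values, and its membership favours a rise. On the log2(value + 1) scale Cdh9 rose by 3.09 ± 0.63 (SE), with an adjusted p of 0.0267 in limma. It was 1.66 with a pseudocount of 10 in place of 1. The call was lost without young replicates 1 or 3 (adjusted p of 0.0791 and 0.0943) and old replicates 1 or 3 (0.0582 and 0.0777), and in limma without trend and robust estimation (0.0774). Old replicate 1 had 35.9 of Cdh9 and a neuronal marker sum of 629, within the young range of 384 to 731. In this library Stmn2 of the list stood at 170, above the young range of 15.3 to 53.5. Syt1 (96) and Tubb3 (33) were below their young ranges of 181 to 230 and 57.2 to 68.5. Nefl, Nefm, Nefh and Snap25 were within theirs. Macrophage markers summed to 17892, 20701 and 28794 in old replicates 1, 2 and 3, above the young mice in each. So were the sums of Schwann cell, supporting and sulcus epithelium, erythroid, neutrophil and marrow, and T and B cell markers. The old order of Cdh9 was that of the erythroid, neutrophil and marrow, intermediate cell and marginal cell sums, and not that of the macrophage sum. The part of any of these cells in the rise was not tested. Cdh9 lies on chromosome 15 from 16728756 to 16857094 (GRCm38), and 6.33% of its exon length overlaps the antisense gene Gm49127.

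Cdh11, the cadherin of bone-forming and other mesenchymal cells, had 1239, 697 and 722 normalised read counts in the young and 450, 681 and 476 in the old mice. The groups did not overlap, although old replicate 2 was close to the lower young mice. The log2 fold change of −0.70 (95% interval −1.26 to −0.14) did not pass in limma (adjusted p = 0.15) and passed in DESeq2 on the recovered reads (0.0481) and in the authors' deposited table (0.0482). The sum of 8 bone markers was 4732 to 7385 in the young and 3021 to 4061 in the old mice, and that of 6 fibroblast markers 60323 to 71129 and 34656, 62890 and 27365 in old replicates 1, 2 and 3. Per 100 reads of the fibroblast sum, Cdh11 had 1.16 to 1.74 in the young and 1.08 to 1.74 in the old mice. The part of bone and fibroblasts in the difference was not tested.

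Cdh19, a cadherin of cells derived from the neural crest, had 1693, 1369 and 1200 normalised read counts in the young and 2141, 1560 and 2546 in the old mice, with a log2 fold change of 0.54 (95% interval 0.10 to 0.97, limma adjusted p = 0.154). It passed without old replicate 2 (0.027). The sum of 8 Schwann cell markers was 22413 to 27361 in the young and 27880, 35671 and 39807 in old replicates 1, 2 and 3. Cdh19 did not have that order and was lowest among the old mice in replicate 2. The intermediate cell sum had the old order of Cdh19, at 236477, 194750 and 289183, against 233517 to 243251 in the young. So did the marginal cell, erythroid, and neutrophil and marrow sums. The part of any of these cells in the values of Cdh19 was not tested. Cdh18 had 324 to 382 in the young and 327 to 491 in the old mice. Cdh6 and Cdh24 had means of 157 and 126 in young and 127 and 111 in old mice. Cdh8 had 60.2 to 85 in the young and 30.1, 80.4 and 25 in the old mice, and it passed without old replicate 2 (limma adjusted p = 0.0446). Cdh10 and Cdh20 were low, with means of 18 and 29.7 in young and 6.37 and 37.6 in old mice.

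Of the 3 remaining cadherins, Cdh13, Cdh23 and Cdh26, Cdh13 rose, against 5.25% of all genes called by limma. Cdh13 encodes T-cadherin, which a lipid anchors to the membrane of vessel and muscle cells. It stood at 88.1, 96.5 and 83.7 normalised read counts in the young and at 136, 250 and 218 in the old mice, without overlap. From 89.4 ± 6.47 the mean rose to 201 ± 58.8 (SD, n = 3 each), or by 1.12 ± 0.26 (SE) on the log2 scale, with an adjusted p of 0.0404 in limma. The call was lost without young replicates 1, 2 or 3 (adjusted p of 0.0952, 0.112 and 0.161), without old replicates 2 or 3 (0.0804 and 0.0986) with quantile normalisation (0.0603) and without trend and robust estimation (0.089), and kept without old replicate 1 (0.0131). The sums of endothelial markers and of 7 markers of pericytes and smooth muscle were lowest in old replicate 1, which also had the lowest Cdh13 of the old mice. That library had 9636 and 15499 for these sums, below the young ranges of 11235 to 12707 and 18174 to 19426, and its Cdh13 was above all young mice. The part of vessel cells in the rise was not tested. Cdh13 lies on chromosome 8 from 118283733 to 119324921 (GRCm38).

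Cdh23, the cadherin of the hair bundle's tip links, had 323, 258 and 233 normalised read counts in the young and 128, 60.5 and 288 in the old mice. The log2 fold change of −1.03 (95% interval −2.17 to 0.11) did not pass (limma adjusted p = 0.278), and without old replicate 3 it was −1.60 and passed (0.0418). Old replicate 3 also had the highest sum of hair cell markers among the old mice, 3269 against 1084 and 1428 in old replicates 1 and 2, and the young sums were 3220, 1797 and 2329. The part of hair cells in the dissections in these values was not tested. Cdh26 had 8.39 to 14.5 in the young and 2.91 to 21.7 in the old mice.

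Besides the members, 124 further genes of junctions were measured, of which 0 rose and 7 fell, with a median log2 fold change of −0.03. At an unadjusted p below 0.05 limma gave 10 higher (8.06%) and 25 lower (20.2%), against 10.8% and 10.6% of all genes. On the recovered reads edgeR called 0 and 6, and DESeq2 called 4 and 16. In either direction limma called 5.65% of these genes against 5.25% of all genes, edgeR 4.84% against 5%, and DESeq2 16.1% against 10.6%. Of 33 scaffold and polarity genes limma and edgeR called 0, DESeq2 called 4, and 9 had an unadjusted p below 0.05. Of 24 catenins, nectins and their partners 1 fell, Ctnnd2, a catenin of the p120 family known from neurons, from 749 ± 20.9 to 251 ± 54.3 normalised read counts (SD, n = 3 each, log2 fold change −1.60 ± 0.18 SE, limma adjusted p = 0.00232). The partners of E-cadherin were not called: Ctnnb1, the gene of beta-catenin, had 0.06 (95% interval −0.17 to 0.30), Ctnna1 0.07 (−0.16 to 0.29) and Ctnnd1 −0.10 (−0.33 to 0.12). Of 27 atypical cadherins and protocadherins 3 fell, Pcdh7 (−1.16 ± 0.20), Pcdh9 (−1.53 ± 0.26) and Pcdh18 (−1.17 ± 0.27). Of 10 desmosome genes 1 fell, Pkp1, which encodes plakophilin 1, from 2946 ± 297 to 1472 ± 318. Of 12 immunoglobulin-type adhesion genes 2 fell, Jaml, a partner of the coxsackie and adenovirus receptor on leukocytes and epithelia, from 1787 ± 56.9 to 842 ± 172, and Cadm2 from 261 ± 14 to 109 ± 53.7. Limma thus called 4.17%, 11.1%, 10% and 16.7% of the catenin, atypical cadherin, desmosome and immunoglobulin-type lists as lower, against 2.55% of all genes. In that order edgeR called 1, 3, 1 and 1 genes lower, and DESeq2 called 2, 7, 1 and 4. DESeq2 also called 2 immunoglobulin-type genes higher. At an unadjusted limma p below 0.05 there were 2, 0, 2 and 3 higher and 4, 8, 2 and 4 lower. Of 18 regulators of junction genes, among them Grhl2, Esrp1, Snai2 and Zeb1, limma, edgeR and DESeq2 called 0, and 1 had an unadjusted p below 0.05.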

How the data were processed

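Per the labels' protocols, total RNA of dissected lateral wall was sequenced from TruSeq libraries, 1 per mouse. The submitters' processing notes name TopHat2, Partek, DESeq2 and the build mm10, with no version and no role; which annotation was counted is not stated there. The deposited data are 1 table with a normalised signal per gene and library (the authors divided reads by a size factor of each library), p-values, adjusted p-values and signed fold changes (a score below −1 where old is lower). The adjusted p-value is missing for 332 genes. Whole reads were recovered from the signal: each library's values are multiples of a step of 0.946 to 1.05, within 0.1 of a whole number for at least 99.9% of genes, and depths ranged from 37055355 to 39103398 reads. Counting intervals cover counting error only.

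Groups were compared with limma 3.58.1 (trend, robust) in R 4.3.3 on log2(value + 1) over 17091 genes with Benjamini-Hochberg adjustment, threshold 0.05; ± after a log2 fold change is the SE. Limma was chosen because the values are scaled. EdgeR 4.0.16 and DESeq2 1.42.0 were run on the recovered reads as alternatives, and all were tested on simulated data. The simulation used the same dispersion for all genes and both groups and changed only genes with many reads. It therefore does not cover genes with few reads or a spread that differs between groups. The other alternatives were quantile normalisation, limma without trend or robust estimation, pseudocounts of 0.1 and 10, a filter at a mean of 10, a threshold of 0.01, the replicate number as a block, each library left out in turn, and the deposited p-values. Values in each library are given for called members, the 10 members with the smallest p and 13 fixed members, and for others as ranges or where a library stands apart; the latter were picked after their values were seen. Positions and exon lengths come from GENCODE M21, matched by 55 of 55 symbols. The members and lists were chosen with earlier results of these data known. P-values rest on the spread between single mice. The values of 1 member, which counts among the 51, are not reported here.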

Additional observations from a re-analysis of the deposited data

How the results depend on the processing

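Counts are called members higher and lower in old mice, all genes called, and other junction genes higher and lower, which were 2, 3, 898, 0 and 7. Leaving out 1 library gave 0 to 3 members higher, 1 to 3 lower, 230 to 1134 genes in all, and 0 to 3 and 3 to 12 other junction genes. Without trend and robust estimation limma called 0 members higher, 2 lower, 337 genes in all and 3 other junction genes lower. With quantile normalisation 1 member was higher. At a threshold of 0.01 there were 0 members higher, 1 lower (Cdh3), 210 genes in all and 2 other junction genes lower. EdgeR on the recovered reads called 854 genes in all and the same 5 members. DESeq2 called 1819 genes in all, and 4 and 16 other junction genes higher and lower; the deposited p-values gave 1818, 4 and 16. The cause of these differences was not tested. With the replicate number as a block, 0 members were higher, 2 lower (Cdh3 and Ildr2) and 406 genes called in all. Cldn14, Cdh9 and Cdh13 then had a limma adjusted p of 0.0917, 0.0678 and 0.0777. Same-numbered libraries deviated from their group means with correlations of −0.244, −0.0965 and −0.0879. With deviations taken within groups of 3, such values cannot decide whether the numbers pair the mice. The sign of 3 uncalled members turned when 1 library was left out: Marveld2 ranged from −0.00 (without young replicate 1) to 0.16, F11r from −0.04 (without young replicate 1 or old replicate 1; −0.01 without old replicate 2) to 0.07, and Cdh5 from −0.14 (without old replicate 3; −0.03 without young replicate 2) to 0.19. F11r was 0.00 in the deposited table. Of 320 log2 fold changes of 20 named members over 16 alternatives, 282 kept sign and call, 26 lost a call, 5 gained one and 7 turned. Members with fewer than about 20 normalised reads, such as Cldn1, Cldn13, Cdh9 and Cdh10, have wide intervals at this depth.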
